A study of Mus musculus with 2 samples.

Results

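Polyamines are small, positively charged molecules that bind RNA and are needed for growth and for translation itself. Ornithine decarboxylase makes putrescine from ornithine, and spermidine synthase and spermine synthase lengthen it with aminopropyl groups that come from decarboxylated S-adenosylmethionine. The pathway is known for control during translation: polyamines raise the rate at which ribosomes slip by a single base on antizyme messenger RNA, so that full antizyme is made and ornithine decarboxylase is bound and degraded. The 8 genes described here are Odc1, Oaz1, Oaz2, Azin1, Amd1, Srm, Sms and Sat1, of 45578 genes with a row in the table. They were taken by name, as the enzymes of polyamine synthesis, the frameshifted antizymes, the antizyme inhibitor and the main acetylating enzyme. No measured value entered the rule, but the choice was made with earlier results of these data known. Where a gene has several transcripts, the one with the largest total over both libraries stood for it.

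The measurements come from whole mouse brain at postnatal day 5, in 1 group of 2 biological replicates. The mice were the controls of a spinal muscular atrophy colony on a congenic FVB background, with the genotype Smn+/-; SMN2tg/0: heterozygous for mouse Smn and carrying the human SMN2 transgene. Both libraries share this genotype, and whether they come from different animals is not stated, so the spread between them may be technical. RiboLace captures ribosomes in translation on beads that carry a puromycin analogue. The lysate was digested with a nuclease for 45 min at 20 °C before capture, and protected fragments of 25 to 35 nucleotides were sequenced.

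Depth set what could be seen. The gene counts summed to 343552 in replicate 1 and 120282 in replicate 2, and protein-coding genes held 81.4% and 73.1% of them. Markers fixed for neurons held 0.628% and 0.636% of gene counts and those for astrocytes and radial glia 0.309% and 0.295%, with 6 of 6 detected in both lists and both libraries. The erythroid list held 0.410% and 0.385%, the oligodendrocyte list 0.059% and 0.056%, the microglial list 0.017% and 0.013%, and the endothelial list 0.016% and 0.019%. The liver list held 0.115% and 0.127%, all of it Ttr (395 and 153 counts), which the choroid plexus of the brain also makes, while Alb and Apoa1 were at 0 in both libraries. The muscle list held 0.021% and 0.020%, with Ckm at 0. Smn1 had 5 and 2 counts. The part of any cell type in the values below was not tested, and in bulk tissue fewer cells of a type and less RNA per cell cannot be told apart.

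Amd1 encodes S-adenosylmethionine decarboxylase, which supplies the aminopropyl groups, and its leader holds a very short upstream reading frame at which ribosomes are known to stall when polyamines are plentiful. That frame is shown because it is the sequence through which translation of this member is known to be controlled. RefSeq windows around gene starts (build GRCm38.p6) were matched for 6 of the 8 genes. In the Amd1 window an ATG began at base 14, counted from the gene start as base 1, and was followed by an in-frame stop after 6 codons. The retrogene Amd2 carried the same frame from base 12. The 30 bases around both frames are on the minus strand, at chr10:40302151-40302180 for Amd1 and chr10:35711856-35711885 for Amd2, and capitals mark the frame from ATG to stop.
Amd1: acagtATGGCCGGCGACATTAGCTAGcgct
Amd2: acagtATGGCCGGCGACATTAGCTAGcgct
The 30 bases were identical. Of 32851 windows of the same length, 2 held this frame of 21 bases on either strand, those of Amd1 and Amd2. An ATG closed by an in-frame stop within the first 50 bases was found in 11.7% of all windows, and among the members in Amd1 alone. The letters CACGTG, the same on both strands and known as an E-box, were in 7.15% of all windows and in 1 of the 7 windows of the members, a Sms window, 196 bases before the gene start. Such matches describe the letters in a window and show no binding or use.

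Translation of the members was first described as a level. Footprint density is the count on a gene's protein-coding transcript in CPM, footprints per 1e6 scaled by the TMM method, divided by the coding length in kilobases. Intervals are exact 95% Poisson intervals, which cover counting error alone. The antizyme Oaz1 stood highest of the 8 genes and Amd1 lowest in both libraries. Oaz1, Srm, Azin1, Oaz2 and Sms lay above the median density of protein-coding genes in replicate 1, and Odc1, Sat1 and Amd1 below it. In replicate 2 Sms, at percentile 48.1, was also below the median. That median was 62.4 CPM per kilobase in replicate 1 and 60.0 in replicate 2, over the 4354 protein-coding genes whose coding transcript reached a mean count of 10. Amd1 and Sat1 did not reach this count and are outside that set, so a place below its median was likely from the start. Among the 14289 protein-coding genes with at least 1 count, the mean densities of Odc1, Sat1 and Amd1 stood at percentiles 75.2, 70.7 and 55.7.

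**Figure D1:**
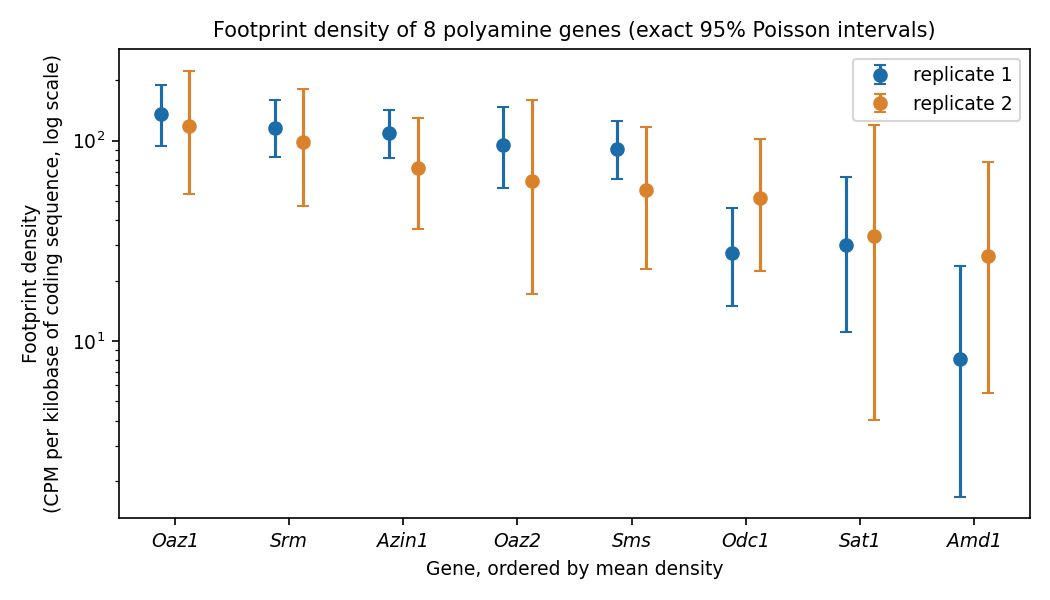
Footprint density of the 8 genes in each library, in CPM per kilobase of coding sequence on a log axis, with exact 95% Poisson intervals as bars. Oaz1 is highest at 135 and 118 and Amd1 lowest at 8.09 and 26.7, and the intervals of replicate 2 overlap for every pair of genes.

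Odc1 (ENSMUSG00000011179) encodes ornithine decarboxylase, the enzyme of the first step, and has a coding sequence of 1386 nucleotides behind a leader of 410. It had 14 and 8 counts in replicates 1 and 2. Its density was 27.4 CPM per kilobase in replicate 1 (interval 14.97 to 45.9). In replicate 2 it was 51.5 (22.3 to 102), which gave a mean of 39.5 ± 17.1 (SD, n = 2). These densities stood at percentile 21.8 and 44.8 of the protein-coding genes past the count minimum. The intervals of the libraries overlap.

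Oaz1 (ENSMUSG00000035242) encodes antizyme 1, which binds ornithine decarboxylase monomers, sends them to the proteasome and also restrains polyamine uptake. Its coding transcript Oaz1-201, with 681 coding nucleotides, had 34 counts in replicate 1 and 9 in replicate 2. The density was 135 CPM per kilobase (93.7 to 189) in replicate 1 and 118 (54.0 to 224) in replicate 2, with a mean of 127 ± 12.2 (SD, n = 2), at percentiles 73.9 and 70.7. Oaz2 (ENSMUSG00000040652) encodes antizyme 2, a second frameshifted antizyme, and has 570 coding nucleotides. It had 20 counts in replicate 1 and 4 in replicate 2, and a density of 95.1 (58.1 to 147) and 62.7 CPM per kilobase (17.1 to 160). The antizymes did not differ beyond counting error: the density of Oaz1 over that of Oaz2 was 1.42 in replicate 1 (exact interval 0.796 to 2.61) and 1.88 in replicate 2 (0.526 to 8.37). Oaz3, the antizyme known from the testis, had 0 counts in replicate 1 and 1 in replicate 2 on its representative transcript.

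Set against the enzyme that antizyme binds, the density of Oaz1 was 4.94 times that of Odc1 in replicate 1 (exact interval 2.58 to 9.97) and 2.29 times in replicate 2 (0.784 to 6.82). The first interval excludes equal density and the second, at lower depth, includes it. For Oaz2 over Odc1 the ratios were 3.47 (1.67 to 7.43) and 1.22 (0.268 to 4.54). The count of a transcript includes ribosomes that stop at the end of the short first frame without slipping as well as those that slip and go on. The table gives no positions along the transcript, so these ratios are of all footprints and not of full-length antizyme.

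Azin1 (ENSMUSG00000037458) encodes antizyme inhibitor 1, a relative of ornithine decarboxylase without its activity, which takes antizyme away from the enzyme. It had the most counts of the 8 genes in both libraries, 54 and 11, over 1347 coding nucleotides. Its density was 109 (81.6 to 142) and 72.9 CPM per kilobase (36.4 to 130.5), or 90.8 ± 25.3 (SD, n = 2), at percentiles 67.4 and 56.3. Azin1 was 3.97 times as dense as Odc1 in replicate 1 (2.17 to 7.74) and 1.41 times in replicate 2 (0.518 to 4.05). Their mean ratio of 2.37 became 1.20 per transcript length, since the Azin1 transcript is 4868 nucleotides long against 2547 for Odc1, and 12.2 with the counts of all transcripts summed. Oaz1 over Azin1 was 1.25 (0.786 to 1.95) and 1.62 (0.593 to 4.30), so antizyme 1 and its inhibitor were not separated in either library.

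Of the aminopropyl transferases, Srm (ENSMUSG00000006442), spermidine synthase, had 39 and 10 counts over 909 coding nucleotides, and a density of 116 (82.7 to 159) and 98.2 CPM per kilobase (47.1 to 181). Sms (ENSMUSG00000071708), spermine synthase, had 37 and 7 counts over 1101 coding nucleotides, and a density of 91.1 (64.1 to 126) and 56.8 CPM per kilobase (22.8 to 117). Sms over Srm was 0.783 in replicate 1 (0.486 to 1.26) and 0.578 in replicate 2 (0.187 to 1.68). Sms was below Srm in both libraries, by less than counting error, and this direction turned with the counts of all transcripts summed, to a mean ratio of 1.17 from 0.673. Per transcript length the mean ratio was 0.293. Srm over Odc1 was 4.25 (2.26 to 8.47) and 1.91 (0.677 to 5.56).

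Amd1 (ENSMUSG00000075232), whose leader frame is printed above, had 3 counts in replicate 1 and 3 in replicate 2 over 1005 coding nucleotides. The density was 8.09 (1.67 to 23.6) and 26.7 CPM per kilobase (5.50 to 77.9). Sat1 (ENSMUSG00000025283), the acetyltransferase that marks spermidine and spermine for export or oxidation and is itself induced by polyamines, had 6 and 2 counts over 537 coding nucleotides, and a density of 30.3 (11.1 to 65.9) and 33.3 (4.03 to 120). Amd1 and Sat1 were the 2 members under the mean of 10 counts that the tests required, and the other 6 passed. Sat1 was 0.260 times as dense as Srm in replicate 1 (0.090 to 0.620) and 0.339 times in replicate 2 (0.036 to 1.59).

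By mean density the order was Oaz1, Srm, Azin1, Oaz2, Sms, Odc1, Sat1 and Amd1, and it was the same in both libraries except that Sat1 stood above Odc1 in replicate 1. Of the 7 pairs of neighbours in this order, 6 had overlapping intervals in both libraries. The exception was Sms over Odc1, whose intervals were apart in replicate 1 and overlapped in replicate 2. Over all 28 pairs, 13 had intervals apart in replicate 1 and 0 in replicate 2. In replicate 1 the intervals of the 5 genes above the gap (Oaz1, Srm, Azin1, Oaz2 and Sms) were each apart from those of Odc1 and Amd1. The intervals of Oaz1, Srm and Azin1 were also apart from that of Sat1. In replicate 2, in which 1 count was worth 8.93 CPM against 2.71 in replicate 1, the intervals of every pair overlapped. Overlap of such intervals does not show that densities are equal. A ratio interval, as given for some pairs above, can still exclude equality. Per transcript length the means of Azin1, Oaz2, Sms and Odc1 were 25.1, 24.4, 21.9 and 21.5 CPM per kilobase, so that Odc1 no longer stood apart from these 3 genes. Against all 14289 protein-coding genes with at least 1 count, the mean densities ran from percentile 55.7 for Amd1 to 91.3 for Oaz1.

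**Figure D2:**
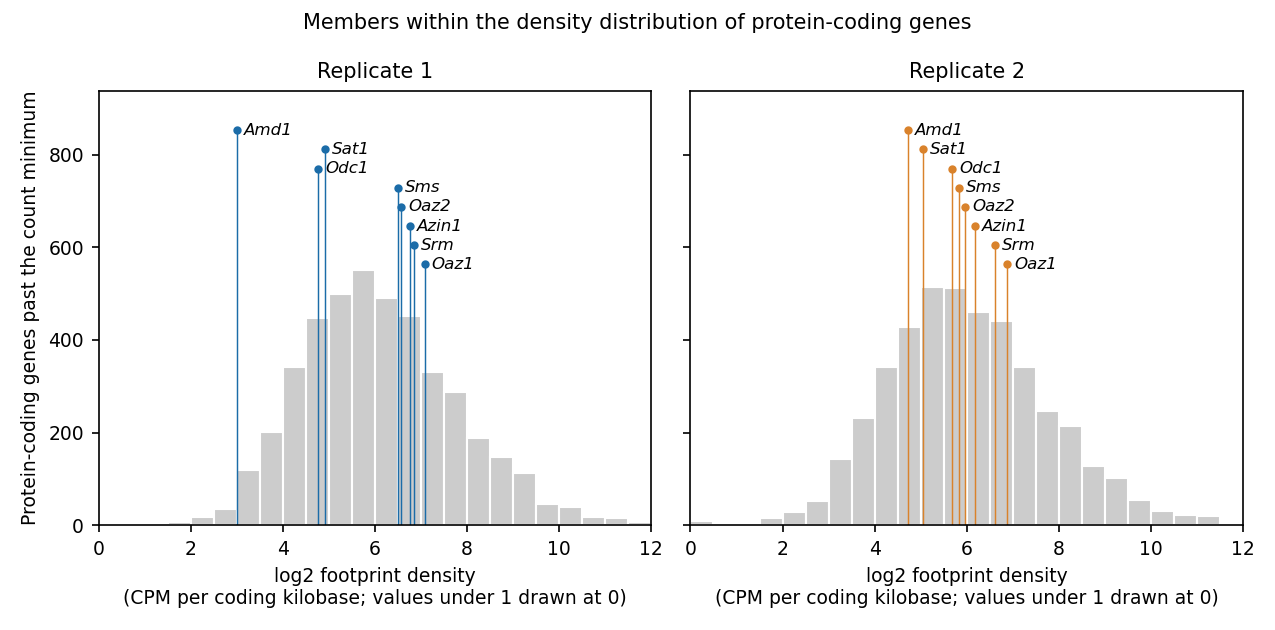
Number of protein-coding genes past the count minimum (bars) by log2 footprint density in each library, with the 8 genes marked by lines whose heights only separate the names. Oaz1, at percentile 73.9 and 70.7, lies right of the centre in both libraries, and Amd1 and Sat1, which are not past the minimum, lie to the left.

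The genes nearest to each member in level were found by the distance in log2 density over the 2 libraries, which is a likeness of level alone and rests on 2 points. Nearest to Odc1 were Nrd1 and Creld1, to Oaz1 P4hb and Bzw2, and to Oaz2 Psmd4 and Papss1. Nearest to Azin1 were Snrpc and 2610002M06Rik, to Srm Inpp5f and Abat, and to Sms Cnr1 and Tm2d2. Distances ran from 0 for Psmd4, with 40 and 8 counts over 1140 coding nucleotides, to 0.063 for Creld1, with 13 and 7 counts over 1263.

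The listed transcripts show how the frameshift genes are annotated and where their counts lie. The 8 genes have 40 transcripts in the table, of which 23 are protein coding, 10 retain an intron, 3 are targets of nonsense-mediated decay and 4 are processed transcripts. Of the 26 with a coding length, 22 have one that is a multiple of 3, and in all 26 the leader, coding and trailer lengths add up to the transcript. Oaz1-003, with 631 coding nucleotides, and Oaz2-007, with 364, are among the 4 that are not a multiple of 3. The lengths alone do not show how the annotation treats the skipped base, since leaving it out would also give a multiple of 3. Oaz1 has coding lengths of 684 in Oaz1-001 and 681 in Oaz1-201 with the same trailer of 286 nucleotides, and Oaz2 has 570 in Oaz2-001 and 567 in Oaz2-201 with the same trailer of 1075. No other member has a pair of coding transcripts 3 nucleotides apart with equal trailers, but Odc1, Amd1 and Srm have 1 coding transcript each. These 3 genes could not have such a pair. Of the 10901 genes with at least 2 coding transcripts, 191 have such a pair, or 1.75%. The search for such pairs was not planned beforehand, so this share is description alone.

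Oaz1-001 had 32 and 7 counts and Oaz1-201 had 34 and 9. The transcript with the most counts was Oaz1-002, a retained-intron form of 2526 nucleotides with no coding length, at 37 and 7. The short Oaz1-003, of 708 nucleotides, held 36 and 6 counts, while transcripts of 1044 and 2526 nucleotides held 32 and 37 counts in replicate 1, and Oaz1-005, of 744 nucleotides, held 35 and 4. Oaz1-006, of 520 nucleotides with 150 of them coding and no leader, had 0 counts in both libraries. These counts may be overlapping views of the same footprints, which was not tested.

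Oaz2-001 had 20 and 4 counts and Oaz2-201 19 and 2. Oaz2-002, of 700 nucleotides, had 15 and 1, and Oaz2-003, a retained-intron form, also 15 and 1. Oaz2-007, which is listed with no leader and 364 coding nucleotides, had 4 and 0.

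In Azin1, Azin1-001 and Azin1-002 share the coding length of 1347 and had 54 and 11 against 50 and 11 counts. The decay target Azin1-003, with a coding length of 465, had 46 and 16 counts, and the 16 of replicate 2 were the most of any Azin1 transcript in that library. Azin1-007, of which 517 of 655 nucleotides are leader, had 12 and 1 counts, and Azin1-006, a processed transcript of 622 nucleotides, had 29 and 7. The retained-intron form Azin1-004 had 2 and 1.

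**Figure D3:**
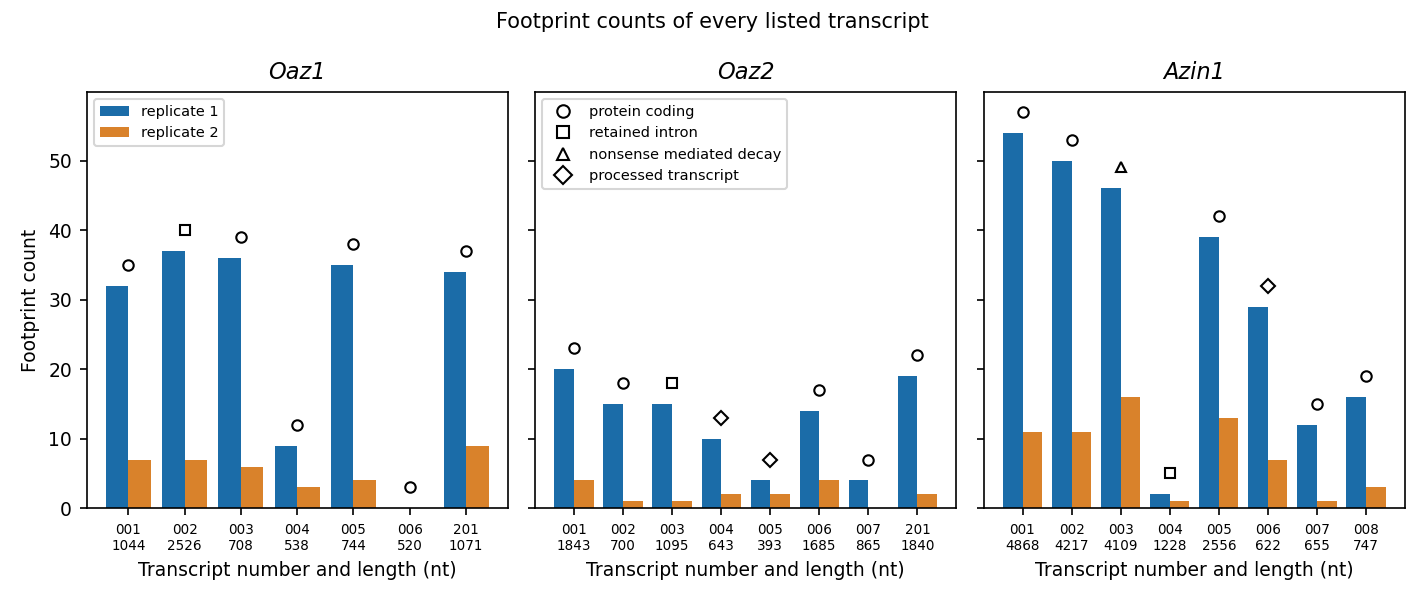
Footprint counts of every listed transcript of Oaz1, Oaz2 and Azin1 in each library (bars), with the transcript number and length in nucleotides below and a symbol for the annotated class. Oaz1-006 has 0 counts in both libraries, while Oaz1-001, Oaz1-002, Oaz1-003, Oaz1-005 and Oaz1-201 hold 32 to 37 in replicate 1.

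Copies in the genome limit which gene a footprint is assigned to. By name, 9 copies of 4 members were in the table. Oaz1-ps, a pseudogene of 681 nucleotides, the coding length of Oaz1-201, had 28 and 7 counts against 34 and 9 for that transcript. Gm14680, which RefSeq names Sms-ps, is 1101 nucleotides long, the coding length of Sms, and had 29 and 6 counts against 37 and 7. Summed over the libraries, these pseudogenes had 81.4% and 79.5% of the count of their parents. Oaz2-ps had 6 and 1 counts, or 29.2% of Oaz2.

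Amd1 had the most copies matched by name, but for it alone the search also took the shorter stem Amd and the gene Amd2. Copies of other members under other names may have been missed. Amd2 had 1 count in each library, and the 5 Amd pseudogenes had 1 to 3 in replicate 1 and 0 to 1 in replicate 2. Values of Oaz1, Oaz2, Sms and Amd1 are uncertain to the extent that fragments of a copy were counted for them or theirs for a copy, which was not tested. No copy of Odc1, Azin1, Srm or Sat1 was matched by name.

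The 8 genes together held 0.061% of gene counts in replicate 1 (210 counts, 95% Wilson interval 0.053 to 0.070) and 0.043% in replicate 2 (52 counts, 0.033 to 0.057), or 0.052% ± 0.013 (SD, n = 2). The intervals overlap only between 0.053% and 0.057%. Such overlap does not show equal shares, and whether the shares differ was not tested. Replicate 2 also held fewer of its counts in protein-coding genes, as given above, and the part of that in the share of the 8 genes was not tested.

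The replicates were compared gene by gene with a 2-sided exact binomial test on TMM-scaled counts, adjusted by Benjamini-Hochberg over the 5436 genes whose mean count reached 10. This compares the 2 libraries and not conditions. Of the 6 members tested 0 were called, against 4.14% of all genes tested. None of the 6 had an unadjusted p under 0.05 either, against 9.60% of all genes, and edgeR's exact test with a preset biological coefficient of variation of 0.2 also called 0 of them, against 2.41% of all genes. Those shares include noncoding genes, whereas all members are protein-coding. Among the 4392 protein-coding genes tested, 42 were called, 247 had an unadjusted p under 0.05 and 8 were called with the preset variation. The exact binomial test called 36 of 100 genes given a simulated 3-fold difference and 17 of 100 given a 2-fold one. The simulation had counting error alone and genes of all depths past the minimum. Differences of that size between the libraries were thus often not detectable.

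Odc1 had 37.9 and 71.4 CPM in replicates 1 and 2. Its difference on the log2(CPM + 1) scale was 0.90 with a counting SE of 0.64 (exact binomial test, adjusted p = 0.856). The other 5 tested members had lower CPM in replicate 2. Azin1 had 146 and 98.2 CPM, a log2 ratio of -0.57 with an SE of 0.48 (exact binomial test, adjusted p = 0.927). Oaz1 and Sms happened to have the same pair of counts on their representative transcripts, 37 and 7, and so the same 100 and 62.5 CPM and log2 ratio of -0.67, with an SE of 0.59 (exact binomial test, adjusted p = 0.924). Oaz2 had a log2 ratio of -0.59 (SE 0.79) and Srm of -0.24 (SE 0.51), with 54.2 and 35.7 CPM and 106 and 89.3 CPM. The median over the 6 was -0.58, against 0.0041 over all genes tested, with 1 of 6 higher in replicate 2 against 2724 of 5436.

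As a plain ratio of CPM, Odc1 was 1.88 times as high in replicate 2 as in replicate 1 (exact interval 0.684 to 4.81) and Azin1 0.671 times (0.316 to 1.30). For Oaz1 and Sms the ratio was 0.623 (0.235 to 1.42), for Oaz2 0.659 (0.164 to 1.97) and for Srm 0.845 (0.376 to 1.72). Sat1, which was not tested, had a ratio of 1.10 (0.108 to 6.14). Amd1, also not tested, had 3 counts in each library and a ratio of 3.30 (0.441 to 24.6), the furthest from 1 of the members. Each of these intervals includes 1.

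**Figure D4:**
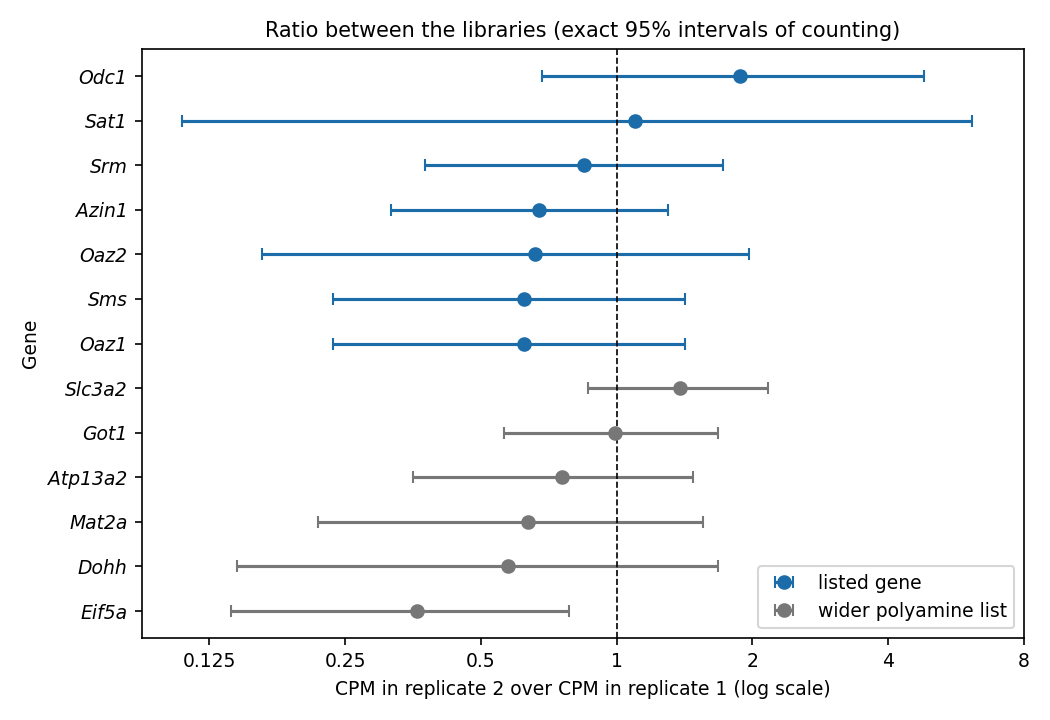
CPM in replicate 2 over CPM in replicate 1 on a log axis for 7 of the 8 genes (Amd1 is left out for its 3 counts in each library) and for 6 genes of the wider pathway, with exact 95% intervals of counting. The intervals of all 7 members include 1, and Eif5a at 0.3604 is the only gene plotted whose interval, 0.139 to 0.786, does not.

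The wider pathway was read from a list of 26 further genes of polyamine supply, breakdown, transport and use. Of these, 6 reached a mean count of 10, and 0 of the 6 were called, against 4.14% of all genes tested and 42 of the 4392 protein-coding ones. Eif5a, the translation factor whose hypusine is built from spermidine, had 64 counts in replicate 1 and 7 in replicate 2 over 465 coding nucleotides. Its density was 373 CPM per kilobase (287 to 476) and 134 (54.1 to 277), the highest mean of the members and the wider list. Its log2 ratio was -1.46 (SE 0.57), with an unadjusted exact binomial p of 0.0070 and an adjusted one of 0.141. Dohh, deoxyhypusine hydroxylase, which completes hypusine, had 23 and 4 counts and 68.6 and 39.3 CPM per kilobase.

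Slc3a2, the heavy chain of amino acid transporters that has also been linked to polyamine transport, had 69 and 29 counts and 110 and 153 CPM per kilobase. Got1, the cytosolic aspartate aminotransferase, had 63 and 19 counts and 137 and 137 CPM per kilobase. Mat2a, which makes the S-adenosylmethionine that Amd1 uses, had 31 and 6 counts and 70.7 and 45.1 CPM per kilobase. Atp13a2, a lysosomal polyamine exporter, had 48 and 11 counts over 3348 coding nucleotides and 38.9 and 29.3 CPM per kilobase. The lowest density of these 6 was that of Atp13a2 and the highest that of Eif5a in replicate 1, while in replicate 2 Slc3a2 was highest.

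The other 20 genes of the wider list had 0 to 17 counts in sum. Agmat, Arg1 and Satl1 had 0 in both libraries, which allows a share of up to 0.00087% in replicate 1 and 0.0025% in replicate 2. Azin2, the second antizyme inhibitor, had 3 and 4 counts. The oxidases Smox and Paox, which break spermine and acetylated polyamines down, had 6 and 2 and 4 and 0 counts. Dhps, deoxyhypusine synthase, had 16 and 1 on its representative transcript, annotated for nonsense-mediated decay, and 10 and 6 on its coding transcript Dhps-001.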

How the data were processed

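The deposited table holds raw whole-number footprint counts of 109463 transcripts in each replicate, with region lengths in nucleotides, per the file headers. The submitters' processing notes name Trimmomatic 0.36, Bowtie2 2.2.6, SAMtools and build GRCm38.p4. The counting tool, annotation release and treatment of multiple matches are not given in the sources used here. Several isoforms of a member carry nearly equal counts, so a fragment may have been counted for more than 1 transcript; this was not tested. Intervals cover counting error only. They may be too narrow even for that, since PCR copies cannot be told from separate molecules here.

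CPM used gene totals with TMM factors of 1.07 and 0.931 from edgeR 4.0.16, on genes whose mean count reached 10. A pseudocount of 1 CPM entered log2 ratios, which understates differences of low genes. The exact binomial test used scipy 1.17.1 and was tested on simulated data. Between the replicates 225 of 5436 genes differed beyond counting error, 42 of them protein-coding, and the source of these differences was not tested. Densities used the protein-coding transcript with the highest count, since the representative of Oaz1 has no coding length. This choice, the sequence searches and the search for transcript pairs 3 nucleotides apart were made after the table was seen. All 34 gene identifiers of both lists carried the same symbol in the name table. The members and lists were chosen with earlier results of these data known. Named genes were all members, the wider-list genes whose mean count reached 10 and the 2 protein-coding genes nearest in density to each tested member; other names were added after their values were seen. Alternatives were library totals, DESeq2 1.42.0 size factors, no filter, the preset variation, protein-coding genes alone, other transcripts, other lengths, other pseudocounts and single replicates.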

Additional observations from a re-analysis of the deposited data

How the results depend on the processing

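No paired analysis was possible because the design has a single group. The number of members called was 0 under all 7 alternatives to the scaling, filter, test and transcript. With transcripts summed, 2 of 7 members had an unadjusted exact binomial p under 0.05. The matching share of the 8366 genes tested there was not computed, so these 2 are description alone. The log2 ratio of each member other than Sat1 kept its sign in the 7 alternatives and with both other pseudocounts. That of Sat1, 0.13, reversed to -0.067 with library totals, -0.038 without the count filter and -0.82 with transcripts summed. The 225 of 5436 genes that differed became 131 of 5436 with the preset coefficient of variation and 22 of 4392 for protein-coding genes alone. With transcripts summed they became 605 of 8366, which splits into 383 higher and 222 lower in replicate 2, against 217 and 8. Library totals, which lower the median log2 ratio of all genes from 0.0041 to -0.20, gave 176 and 23. The order of mean densities was the same with library totals, DESeq2 size factors, the longest coding transcript and transcript length, but with transcripts summed Srm moved from rank 2 to 5, Azin1, Oaz2 and Sms moved up to 2, 3 and 4, and Sat1 stood above Odc1. Summing transcripts, which would count a fragment repeatedly if it was counted for several isoforms, gave log2 density ratios of 3.96 for Oaz1 over Odc1 (from 1.75), 3.60 for Azin1 over Odc1 (from 1.24) and 0.23 for Sms over Srm (from -0.57), and moved the share of the 8 genes from 0.052% to 0.087%. Transcript length moved Sms over Srm to -1.77 and Azin1 over Odc1 to 0.27, and protein-coding counts alone moved the share to 0.067%. Apart from the lengths, the cause was not tested. Single replicates gave 1.20 to 2.31 for Oaz1 over Odc1, 0.50 to 1.99 for Azin1 over Odc1, -0.79 to -0.35 for Sms over Srm and 0.043 to 0.061% for the share. Depth limits replicate 2 most, where 3 counts are 26.8 CPM.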
